A study of Mus musculus with 26 samples.

Results

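The 10 genes described here encode subunits of the transcription factor NF-kappaB and proteins that hold it back or tune it. They are Nfkbia, Tnfaip3, Birc3, Nfkbiz, Nfkbid, Bcl3, Rel, Nfkb1, Nfkb2 and Relb, chosen by gene name as a pathway from the 56392 genes of the deposited expression table. Each name matched 1 row. All 10 were among the 15672 genes expressed well enough to be tested, which asked for 1 FPKM or more in 5 or more libraries. FPKM is a fragment count scaled by gene length and an adjusted library depth, so levels of different genes can be set side by side.

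Poly(A)-selected RNA of the spleen was sequenced in 26 libraries from female BALB/c mice aged 8 weeks and weighing 18 to 22 g. Saline controls (code CT, n = 5) received normal saline into the peritoneum on days 1, 3 and 5. Ovalbumin (OVA), a protein of hen egg white and a common experimental allergen, was given on the same days at 0.05 mg per day, in libraries of the codes OS (n = 6) and ON (n = 5). Libraries of the codes MM (n = 5) and MN (n = 5) came from mice that had the same OVA and, straight after their second injection on day 3, 7 mg per kg of a miR-676-3p mimic through the tail vein. The labels define none of the codes OS, ON, MM and MN and do not say how they differ. They state 20 mice per group but not whether each library is a separate mouse or a pool, so p-values measure only the spread between these libraries, which may be technical.

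NF-kappaB is a family of dimers that wait in the cytoplasm bound to inhibitor proteins. When receptors for cytokines, microbial products or antigen are engaged, the classical inhibitor is degraded, the dimer enters the nucleus, and among the first genes it switches on are those for its own inhibitors and for enzymes that shut the signal off. In spleen, the classical route with c-Rel serves B and T cell activation, and the alternative route with p100 and RelB serves B cell survival and the organisation of lymphoid tissue.

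Because several members are themselves targets of the factor, the start regions of 4 of them are shown. Tnfaip3 and Rel passed the test in OS against saline, while Nfkbia and Nfkb2 did not. The RefSeq promoter table (GRCm38.p6) held 7 of the 10 members with 12 start sites, each as a window from 250 bases before to 50 bases after the start. Promoters of Nfkbiz, Nfkb1 and Relb were not analysed here. Capitals mark matches to the NF-kappaB consensus on either strand, with overlapping matches counted as 1 place. The windows, 5′ to 3′ on the gene's strand, are chr10:19015361-19015660 on the minus strand for Tnfaip3, chr11:23770920-23771219 on the minus strand for Rel, chr12:55492598-55492897 on the minus strand for Nfkbia and chr19:46304487-46304786 on the plus strand for Nfkb2.
Tnfaip3: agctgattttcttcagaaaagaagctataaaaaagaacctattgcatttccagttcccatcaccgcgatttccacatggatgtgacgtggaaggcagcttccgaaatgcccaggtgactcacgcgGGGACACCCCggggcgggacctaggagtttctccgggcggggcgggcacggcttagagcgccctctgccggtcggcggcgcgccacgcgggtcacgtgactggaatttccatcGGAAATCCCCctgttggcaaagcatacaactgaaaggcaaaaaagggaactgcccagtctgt
Rel: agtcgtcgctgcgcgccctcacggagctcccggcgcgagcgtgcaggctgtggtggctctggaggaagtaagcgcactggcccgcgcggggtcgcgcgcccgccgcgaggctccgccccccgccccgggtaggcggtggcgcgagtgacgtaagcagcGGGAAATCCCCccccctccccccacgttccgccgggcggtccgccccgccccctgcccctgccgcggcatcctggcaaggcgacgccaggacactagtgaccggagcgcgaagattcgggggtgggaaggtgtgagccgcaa
Nfkbia: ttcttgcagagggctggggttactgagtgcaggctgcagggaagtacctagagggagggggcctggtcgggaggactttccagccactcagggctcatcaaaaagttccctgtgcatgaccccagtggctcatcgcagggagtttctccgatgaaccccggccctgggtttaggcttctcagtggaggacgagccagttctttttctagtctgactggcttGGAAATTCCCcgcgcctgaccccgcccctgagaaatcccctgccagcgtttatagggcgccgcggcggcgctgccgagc
Nfkb2: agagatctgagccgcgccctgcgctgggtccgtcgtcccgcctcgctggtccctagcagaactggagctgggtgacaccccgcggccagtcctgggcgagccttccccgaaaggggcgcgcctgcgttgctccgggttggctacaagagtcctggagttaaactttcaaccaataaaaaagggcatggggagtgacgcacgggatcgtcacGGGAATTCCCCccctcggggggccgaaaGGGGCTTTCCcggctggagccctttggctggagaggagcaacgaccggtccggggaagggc

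The Tnfaip3 window shown held the consensus at positions -125 to -116 and -12 to -3 from the start. It also held the AP-1 site TGACTCA at -136 to -130, found with the pattern TGANTCA on both strands. Rel had a pair of overlapping matches, from -92 to -83 and from -91 to -82. Nfkbia had a match at -29 to -20, and Nfkb2 had overlapping ones from -39 to -29 and another at -11 to -2. A start site further along Nfkb2 held the consensus at -236 to -227 and at 10 to 19, with the TGANTCA match TGAATCA at -210 to -204. The window of the last Nfkb2 start site overlaps this one. Its match, at -225 to -216, is the same bases as that at 10 to 19. Of the other windows, Bcl3 held the consensus at 2 to 11 after its start, and a start site of Nfkbid held it at -226 to -217 and at -181 to -172, with a cAMP response element (TGACGTCA) at -51 to -44. In all, 6 of the 7 members and 8 of their 12 windows had a consensus match, against 8.46% of 32851 RefSeq promoter windows of the same length. Those 8 include the overlapping Nfkb2 windows that share a match. Birc3 had none in its window. The other Tnfaip3 window, chr10:19011914-19012213, had none either, nor had the Nfkbid windows chr7:30421481-30421780 and chr7:30423025-30423324. For TGANTCA, which allows any base at its centre, and the cAMP response element the shares of all windows were 7.81% and 1.79%. Uncalled Nfkb2 and called Tnfaip3 thus share the motif, and a match describes letters, not binding.

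The mimic given to the MM and MN mice carries the mature miR-676-3p sequence of 21 bases, printed here with its seed, bases 2 to 8, in capitals. It lies at chrX:100381151-100381171 on the plus strand (RefSeq, GRCm38.p6). The line after it gives the single place in the members' 3′ UTRs (GENCODE M21) that matches the seed, in Tnfaip3, with the match in capitals.
miR-676-3p: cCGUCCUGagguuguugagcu
Tnfaip3 site: cagggaaaaaCAGGACGtaggcggagc

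The match began at base 496 of the 1821 bases of the Tnfaip3 3′ UTR. The 3′ UTRs of the other 9 members held none. Of 11721 tested genes with an annotated 3′ UTR, 354 held the match, or 3.02%.

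Recovered reads per library ranged from 14224832 in MM 2 to 18113989 in ON 4, and the members had between 108 reads (Bcl3 in CT 4) and 7693 reads (Tnfaip3 in OS 4) in a library, so counting error was small beside the spread between libraries. Spleen markers were present in all libraries, from 102 to 391 FPKM for the macrophage gene C1qa and from 26.1 to 60.3 FPKM for the red pulp macrophage gene Spic. Several libraries stood apart. The share of reads on pancreas genes was 28.1% for ON 2, 14.0% for MM 2 and 4.22% for ON 3, and no higher than 0.00339% elsewhere. The mitochondrial share was 6.62% for CT 4 and did not exceed 1.81% among the remaining saline samples. In bulk tissue, fewer cells of a type and less RNA per cell cannot be told apart.

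Among the 10 members, 2 rose in OS spleens against saline: Tnfaip3, which encodes the deubiquitinating enzyme A20 that ends NF-kappaB signalling, and Rel, which encodes the subunit c-Rel. That is 2 of 10 members called, beside 2.99% of all tested genes in the same comparison, or 1.98% counting only rises. The rise was 1.41 ± 0.33 (log2, SE) for Tnfaip3 and 0.95 ± 0.21 for Rel. The inhibitor genes Nfkbiz and Nfkbid had OS means of 27.9 and 24.9 FPKM over saline means of 13.98 and 13.02, without passing the test. Nfkb1, Nfkb2, Relb and Bcl3 differed from saline by -0.04 to 0.10 on the log2 scale, none past the threshold. Without CT 4 the differences of Bcl3 and Nfkb2 were -0.42 and -0.34, again not called. In MN spleens, from mice given the mimic, Tnfaip3 and Rel had means of 15.97 and 16.5 FPKM, beside 16.9 and 15.3 in saline, and both were lower than in OS. MM spleens, from mice given the same mimic, had 28.9 and 20.7 FPKM, and neither gene was called against OS or MN. ON spleens, with OVA and no mimic, had 18.7 and 22.7 FPKM, and neither gene was called against saline or MN.

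**Figure D1:**
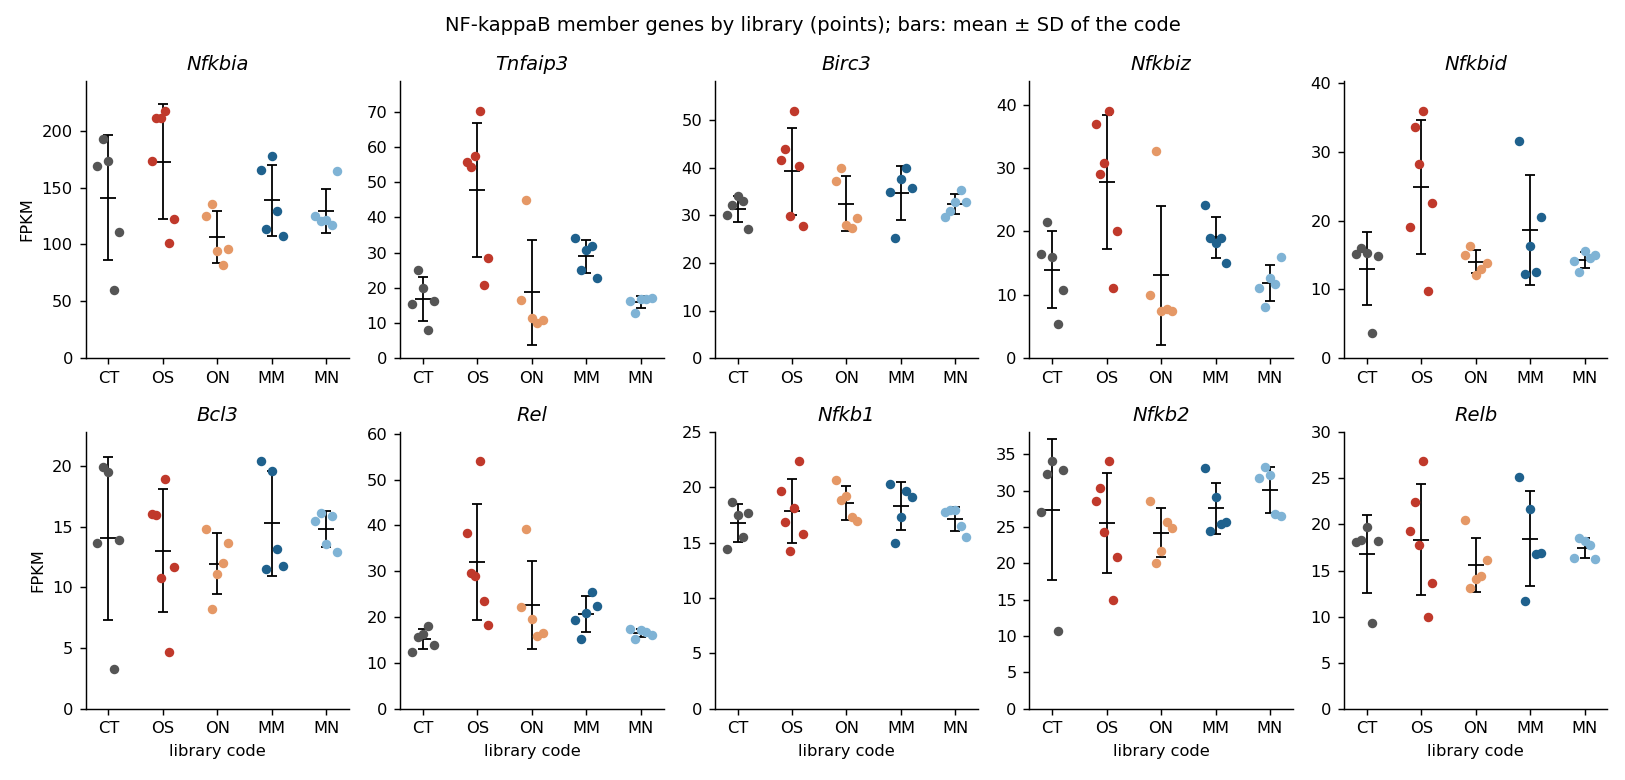
FPKM of each of the 10 members (1 panel per gene, y axis in FPKM starting at 0) in every library, by code on the x axis, with a horizontal line at the mean and whiskers of 1 SD (n = 5, and 6 for OS). The 6 OS points of Rel all lie above the highest saline point, 18.1 FPKM, and 5 of the 6 OS points of Tnfaip3 lie above the highest saline point, 25.03 FPKM, while the codes of Nfkb1 overlap throughout.

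Nfkbia encodes IkappaB-alpha, the classical inhibitor that holds NF-kappaB in the cytoplasm. It was the most abundant member, with a median of 125 FPKM over the 26 libraries, a level at the 98.1 percentile of tested genes. Its saline libraries CT 1 to CT 5 had 169, 193, 173, 59.8 and 111 FPKM. In OS it ranged from 101 to 217 FPKM with a median of 192, and ON 1 to ON 5 had 125, 136, 94.4, 81.8 and 96.0 FPKM. The codes overlapped: 3 of 6 OS libraries exceeded the highest saline library and no ON library did. MM libraries spanned 108 to 177 FPKM and MN libraries 117 to 164 FPKM. No comparison was called: OS minus saline was 0.35 ± 0.25 (limma adjusted p = 0.547) and ON minus saline -0.31 ± 0.26 (adjusted p = 0.668). Without CT 4 these were 0.07 (adjusted p = 0.901) and -0.59 (adjusted p = 0.198).

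Tnfaip3 varied most, with a coefficient of variation of 63.3% over all libraries. CT 1 to CT 5 had 15.3, 25.03, 19.9, 8.08 and 16.2 FPKM. OS 1 to OS 4 had 55.7, 54.2, 57.5 and 70.4 FPKM, while OS 5 and OS 6 had 20.75 and 28.4. The first 4 OS libraries were thus above every library of every other code, and OS 5 fell inside the saline range. In ON, 4 libraries had 10.03 to 16.4 FPKM and ON 2, the library with the most pancreas reads, had 45.0. MM 1 to MM 5 had 34.2, 25.1, 30.8, 31.7 and 22.8 FPKM, and MN 1 to MN 5 had 16.4, 12.8, 16.85, 16.80 and 16.97 FPKM. Every MM library was above every MN library, which held for 1 of the 10 members, beside 2.02% of all tested genes. The means fell in the order OS (47.8 ± 19.1 FPKM, SD), MM (28.9 ± 4.79), ON (18.7 ± 14.9), CT (16.9 ± 6.24) and MN (15.97 ± 1.78), and no 2 neighbours in that order differed past the threshold. The highest mean was 2.99 times the lowest, the widest ratio of any member.

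Tnfaip3 passed the test in OS against saline (adjusted p = 0.0180) and in MN against OS, where it was lower by -1.42 ± 0.33 (adjusted p = 0.0190). The OS call was lost when only the OS and saline libraries were fitted (adjusted p = 0.101), and the MN call when MN 2 was left out (adjusted p = 0.0606). OS minus ON was as large, at 1.43 ± 0.33 with a 95% interval of 0.76 to 2.10, but did not pass (adjusted p = 0.0615). Without ON 2 it was 1.80 (adjusted p = 0.00161), and without OS 5 it was 1.64 (adjusted p = 0.00785). It passed in 7 of 37 alternatives, and the adjusted p was 0.376 when only the OS and ON libraries were fitted. MM minus saline was 0.81 ± 0.34 (adjusted p = 0.425) and MM minus MN 0.81 ± 0.34 (adjusted p = 0.568).

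Birc3 encodes cIAP2, a ubiquitin ligase of the TNF receptor complex and itself a target of NF-kappaB. Its levels were narrow: 27.2 to 34.2 FPKM in saline, 27.4 to 40.0 in ON, 25.3 to 39.9 in MM and 29.7 to 35.4 in MN. OS ran from 27.7 to 52.0 FPKM with a median of 41.0, and 4 of its libraries had over 40 FPKM. OS minus saline was 0.29 ± 0.14 (adjusted p = 0.313), so the OS mean of 39.3 ± 9.10 FPKM was not set apart from the saline mean of 31.3 ± 2.75.

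The proteins encoded by Nfkbiz, Nfkbid and Bcl3, the atypical inhibitors, act mainly in the nucleus, where they bind p50 or p52 dimers and raise or lower transcription of chosen targets. Nfkbiz, which encodes IkappaB-zeta, had 16.5, 21.4, 15.9, 5.34 and 10.8 FPKM in CT 1 to CT 5. OS ranged from 11.01 to 39.1 FPKM with a median of 29.99, and 4 of 6 libraries were above all saline libraries. ON 2 had 32.7 FPKM, while the other 4 ON libraries had 7.43 to 10.03. MM ran from 15.02 to 24.1 and MN from 8.09 to 16.00 FPKM. OS minus saline was 0.96 ± 0.35 (adjusted p = 0.143), MN minus OS -1.08 ± 0.35 (adjusted p = 0.0819) and OS minus ON 1.18 ± 0.35 (adjusted p = 0.171), none past the threshold. Without OS 5, the lowest OS library, these became 1.19 (adjusted p = 0.0404), -1.32 (adjusted p = 0.0239) and 1.41 (adjusted p = 0.0277), all past it. For OS minus saline this was the only 1 of 37 alternatives that passed, and the difference ranged from 0.68 to 1.19. MN minus OS passed in 6 of 37 and OS minus ON in 5 of 37. Without ON 2, OS minus ON was 1.56 (adjusted p = 0.00787).

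Nfkbid, which encodes IkappaB-NS, a protein B cells need for T-independent antibody responses, sat at 14.9 to 16.1 FPKM in 4 saline libraries and at 3.63 in CT 4. OS 1 to OS 6 had 19.05, 33.6, 28.2, 36.0, 9.755 and 22.6 FPKM, so 5 of 6 were above every saline library and OS 5 was below all but CT 4. ON and MN stayed within 12.1 to 16.2 FPKM. In MM, MM 1 had 31.5 FPKM and the rest 12.3 to 20.6. OS minus saline was 0.92 ± 0.31 (adjusted p = 0.115), and 1.15 without OS 5 (adjusted p = 0.0214). Without CT 4 it was 0.55 (adjusted p = 0.233), and 2 of 37 alternatives called it.

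Bcl3, whose product is a co-activator of p50 and p52 homodimers, was not called in any comparison. Saline libraries had 13.7, 19.9, 19.5, 3.26 and 13.9 FPKM, and OS had 4.71 to 18.9 with a median of 13.8. Its highest value, 20.4 FPKM, was in MM 1. OS minus saline was -0.02 ± 0.32 (adjusted p = 0.987) and MM minus saline 0.26 ± 0.34 (adjusted p = 0.829). Without CT 4 these became -0.42 and -0.14, and ON minus saline went from -0.05 to -0.46, all with an adjusted p over the threshold.

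Of the subunits, Rel was the only called one. CT 1 to CT 5 had 12.48, 15.7, 16.4, 18.1 and 13.9 FPKM. OS 1 to OS 6 had 38.3, 29.7, 28.9, 54.0, 23.5 and 18.3 FPKM, all above the highest saline library. That absence of overlap held for 1 of 10 members, beside 1.40% of all tested genes. ON 1 to ON 5 had 22.1, 39.2, 19.7, 15.98 and 16.4 FPKM, MM ran from 15.2 to 25.6 and MN from 15.1 to 17.5. No MN library exceeded the highest saline library, and every MN library was below every OS library. Means were 32.1 ± 12.6 FPKM in OS, 22.7 ± 9.57 in ON, 20.7 ± 3.85 in MM, 16.5 ± 0.948 in MN and 15.3 ± 2.18 in saline, and no 2 neighbours in that order differed past the threshold.

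Rel passed in OS against saline (adjusted p = 0.0155) but not when only those libraries were fitted (adjusted p = 0.106). In MN against OS, Rel was lower by -0.84 ± 0.21 (adjusted p = 0.0355). The call was made in 26 of 37 alternatives, and leaving out MN 2 gave the highest adjusted p, 0.0901. MN against OS called 2 of 10 members, beside 2.89% of all tested genes, or 1.60% counting only falls. Tnfaip3 and Rel were also the members wholly below OS there. The MN and OS ranges did not overlap for 5.62% of tested genes, with MN above for 3.04% and below for the rest.

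Nfkb1, which encodes p105 and its product p50, was the steadiest member, with a coefficient of variation of 11.2%. All 26 libraries lay between 14.3 (OS 3) and 22.4 FPKM (OS 5), and the highest code mean was 1.11 times the lowest. OS minus saline was 0.08 with a 95% interval of -0.13 to 0.29. Nfkb2 and Relb, which encode p100 and RelB of the alternative route, were not called in any comparison either. Nfkb2 had 27.1 to 34.0 FPKM in 4 saline libraries and 10.7 in CT 4, with 15.02 to 34.0 in OS, 20.1 to 28.6 in ON, 24.4 to 33.1 in MM and 26.5 to 33.3 in MN. Relb had 18.1 to 19.8 FPKM in 4 saline libraries, 9.32 in CT 4, and 10.01 to 26.8 in OS, with the ends at OS 5 and OS 4. OS minus saline was -0.04 (95% interval -0.49 to 0.41) for Nfkb2 and 0.10 (-0.33 to 0.53) for Relb.

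**Figure D2:**
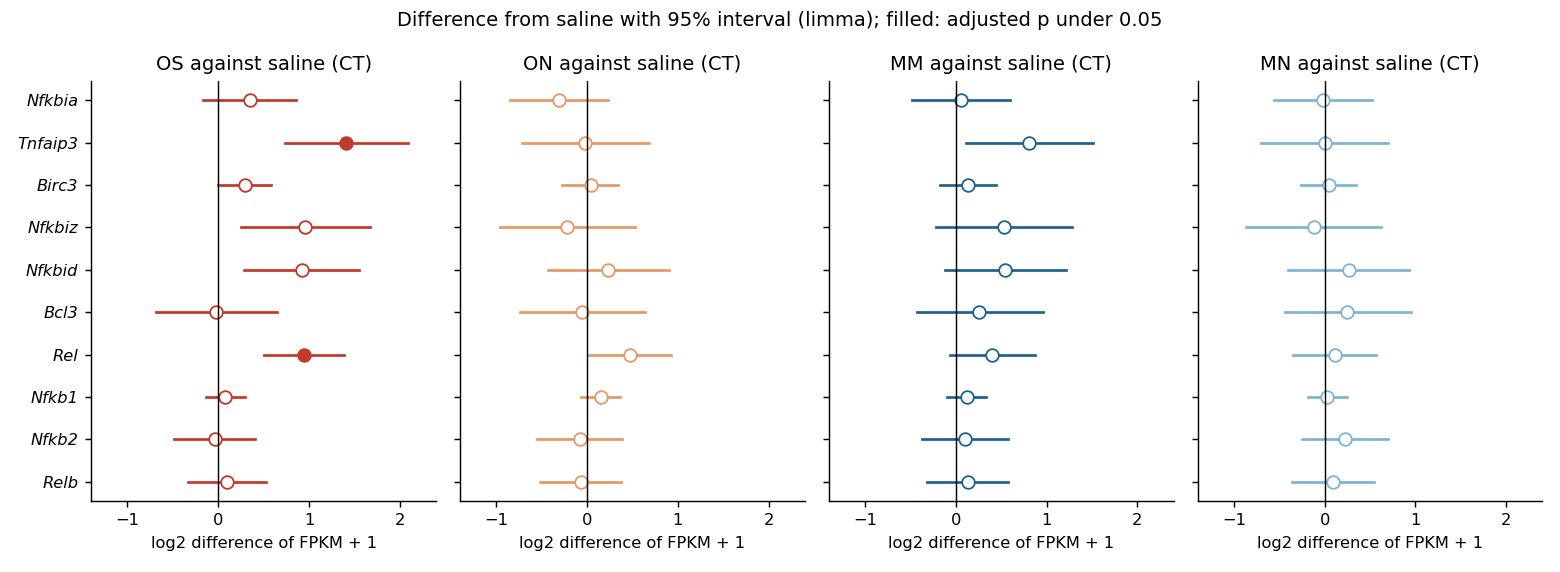
Difference of each code from saline in log2(FPKM + 1) for the 10 members, with 95% intervals from limma and filled points where the adjusted p was under 0.05. The filled points are Tnfaip3 (1.41) and Rel (0.95) in OS, and the MN points lie between -0.12 and 0.27.

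Taken by treatment, with the codes averaged, OVA against saline called 1 of 10 members, beside 2.17% of all tested genes, or 0.785% counting only rises. It was Rel, higher by 0.71 ± 0.19 with a 95% interval of 0.32 to 1.11 and an adjusted p of 0.0498, at the edge of the threshold. The call was kept in 13 of 38 alternatives, and the difference stayed between 0.59 and 0.78 in all of them. Without the libraries with pancreas reads it was 0.59 (adjusted p = 0.119), and without ON 2 alone 0.61 (adjusted p = 0.0699). Leaving out any of CT 1, CT 2, CT 3, CT 5, OS 1, OS 2, OS 4, ON 1, ON 3, MM 1, MM 3, MM 5 or any MN library ended the call too, with adjusted p between 0.0524 and 0.128. Tnfaip3 had an OVA mean of 34.6 ± 22.4 FPKM (n = 11) and a difference of 0.70 ± 0.29 (adjusted p = 0.219). The median difference of the members was 0.14, beside 0.01 for all tested genes, and 8 of 10 were above 0, beside 51.7% of all genes. Without CT 4 the members' median was 0.09 with 6 above 0, and without CT 4 and the libraries with pancreas reads it was -0.00 with 5 above 0.

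OVA with the mimic against OVA called 0 of 10 members, beside 0 of all tested genes. At an unadjusted p under 0.05, limma named 1 member, Rel, beside 10.1% of all genes, and voom on the recovered reads also called no member. Rel had 27.8 ± 11.9 FPKM with OVA (n = 11) and 18.6 ± 3.45 with the mimic (n = 10), a difference of -0.45 ± 0.15 with a 95% interval of -0.77 to -0.13 (adjusted p = 0.330). Tnfaip3, the member with the seed match, had 34.6 ± 22.4 FPKM with OVA and 22.5 ± 7.64 with the mimic, a difference of -0.29 ± 0.24 (interval -0.78 to 0.19). OVA with the mimic against saline likewise called 0 of 10 members, beside 0 of all tested genes, and 0 at an unadjusted p under 0.05, beside 6.72%, and the median of the 10 differences was 0.18 with all 10 above 0. Both rest on CT 4: without that library the median was -0.02 and 5 of 10 were above 0. The treatment comparisons share libraries: the same OVA libraries enter the first pair, and the same saline libraries enter 2 of the 3.

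The codes within a treatment were then set side by side. OS against ON called 0 of 10 members, beside 0.185% of all genes, and 5 members had an unadjusted p under 0.05, beside 10.6% of all genes. These were Tnfaip3, Nfkbiz, Nfkbia (0.66 ± 0.25), Nfkbid (0.68 ± 0.31) and Rel (0.48 ± 0.21), all higher in OS. Without the 3 libraries with pancreas reads, Tnfaip3 (1.78, adjusted p = 0.0105) and Nfkbiz (1.52, adjusted p = 0.0377) passed. MM against MN called 0 of 10, beside 0.172% of all genes, and 1 member, Tnfaip3, had an unadjusted p under 0.05, beside 7.25% of all genes. When only the MM and MN libraries were fitted, Tnfaip3 passed (adjusted p = 0.0229).

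Against saline, the codes other than OS called no member: 0 in ON, beside 0.510% of all genes, 0 in MM, beside 0.300%, and 0 in MN, beside 0. At an unadjusted p under 0.05 limma named 1 member in ON (Rel, 0.47 ± 0.22), beside 13.6% of all genes, 1 in MM (Tnfaip3), beside 9.78%, and 0 in MN, beside 2.88%. MM against OS, MM against ON and MN against ON also called 0 members, beside 0, 0 and 0.249% of all genes. All comparisons with saline share the 5 saline libraries, and all those with OS share the 6 OS libraries.

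The members did not move as 1 block from library to library. OS 4 had the highest level of 8 members and a summed level of 567 FPKM, beside a median of 306 FPKM. CT 4 had the lowest level of 7 members and a sum of 167 FPKM, but its Rel, at 18.1 FPKM, was the highest of the saline libraries and its Birc3 was 33.1. OS 5 was the lowest OS library for Nfkbia, Tnfaip3, Nfkbiz, Nfkbid, Bcl3, Nfkb2 and Relb and the highest of all 26 for Nfkb1. ON 2 was the highest ON library for Tnfaip3, Nfkbiz, Nfkbid, Nfkbia, Rel and Birc3 and the lowest ON library for Bcl3, Nfkb2 and Relb.

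**Figure D3:**
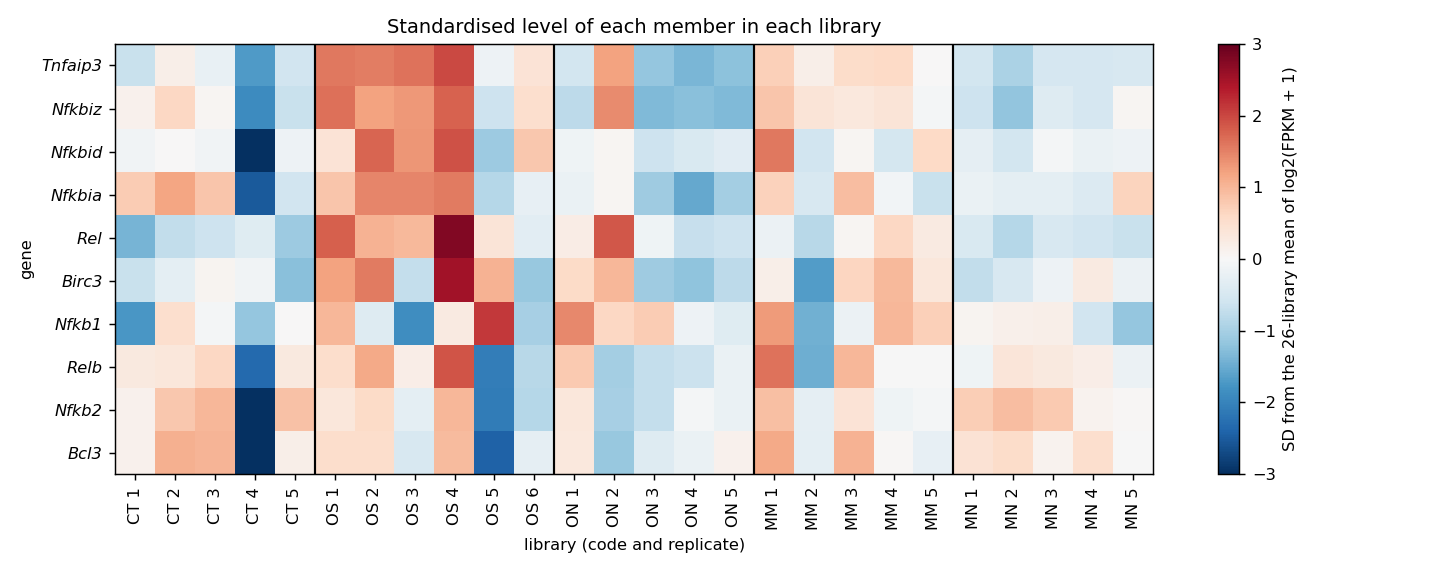
Level of each member (rows) in each of the 26 libraries (columns, grouped by code), as SD from that gene's 26-library mean of log2(FPKM + 1), red above and blue below. OS 1 to OS 4 are red for Tnfaip3, Nfkbiz, Nfkbid, Nfkbia and Rel, CT 4 is blue for 7 of the 10 members where it is the lowest library, and OS 5 is blue for Relb, Nfkb2 and Bcl3 and red for Nfkb1.

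Across libraries, 2 tight groups appeared. Tnfaip3 and Nfkbiz had a Pearson r of 0.96 (Spearman's rho 0.94) over 26 libraries of log2(FPKM + 1), and 0.95 in deviations from the code means. Bcl3, Nfkb2 and Relb formed the other group, with r of 0.95 for Bcl3 and Nfkb2 and 0.85 for Nfkb2 and Relb. Rel went with Birc3 (0.79) and Tnfaip3 (0.78) but not with Nfkb2 (-0.04) or Bcl3 (-0.03). Nfkb1 had an r between -0.07 and 0.47 with every other member. In deviations from the code means the groups were less distinct. There Nfkbid had an r of 0.81, 0.84 and 0.83 with Bcl3, Nfkb2 and Relb, and Nfkbia 0.77, 0.74 and 0.77. Without CT 4 and the libraries with pancreas reads (n = 22), the r was 0.95 for Tnfaip3 and Nfkbiz, 0.89 for Bcl3 and Nfkb2 and 0.82 for Nfkb2 and Relb. Without the 2 libraries farthest from the median of the first gene, the same pairs gave 0.95, 0.84 and 0.75. These values describe libraries that differ in tissue makeup and may share a preparation, and all 45 pairs were computed.

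**Figure D4:**
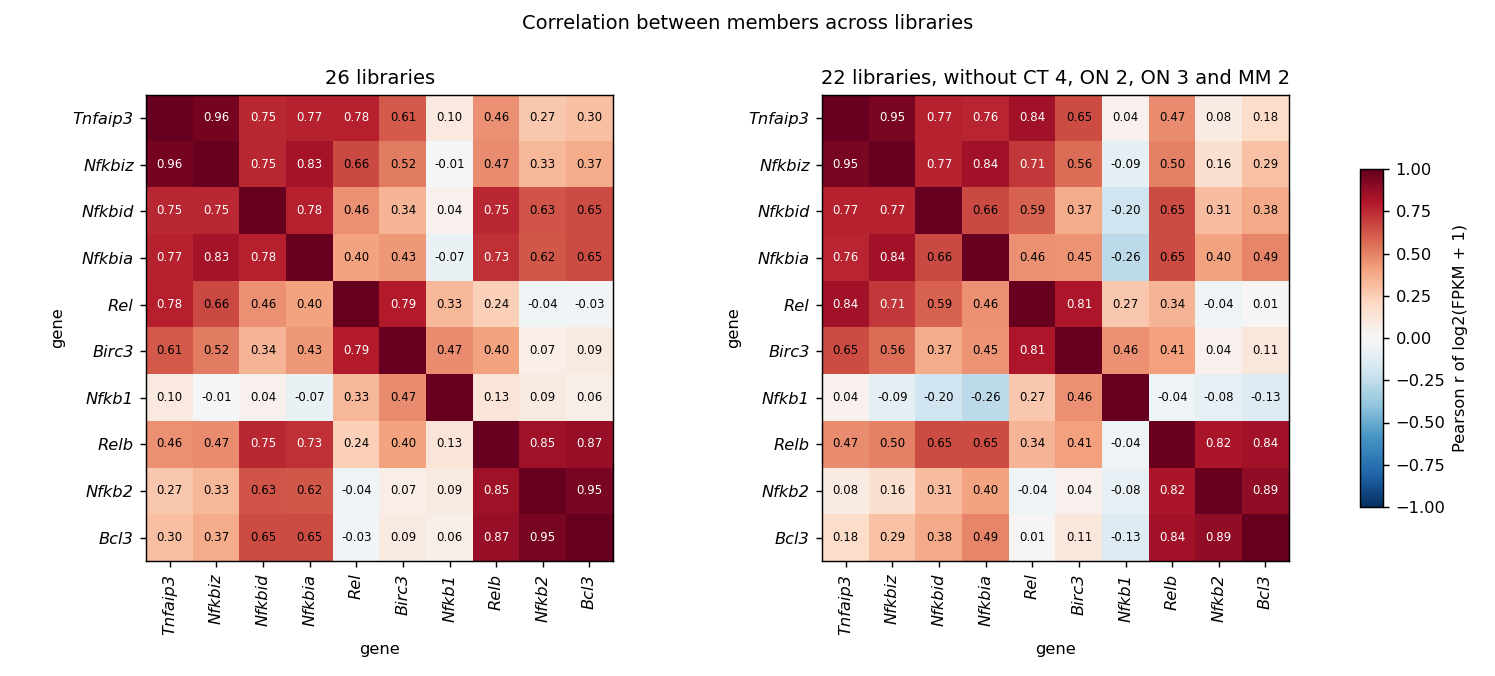
Pearson r of log2(FPKM + 1) between each pair of members, over all 26 libraries (left) and over 22 without CT 4, ON 2, ON 3 and MM 2 (right), coloured from -1 (blue) to 1 (red). Tnfaip3 and Nfkbiz (0.96 and 0.95) and Bcl3 and Nfkb2 (0.95 and 0.89) stand out in both panels, and the row of Nfkb1 stays pale.

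Immediate early genes, which cells switch on within minutes of a stimulus or of handling, were read beside the members. In OS against saline, 9 of 19 rose, beside 1.98% of all tested genes, with a median of 1.29, beside 0.00. The mean of these 19 genes was highest in OS 3 (1.62 above its 26-library mean, log2), OS 2 (1.50), OS 4 (1.45) and MM 1 (1.39) and lowest in CT 4 (-1.83) and OS 5 (-0.93). Over 26 libraries its Pearson r was 0.91 with Nfkbid (rho 0.84), 0.87 with Tnfaip3 (rho 0.83), 0.84 with Nfkbiz (rho 0.83) and 0.73 with Nfkbia (rho 0.64). With Relb it was 0.61 (rho 0.47), with Rel 0.53 (rho 0.41), with Bcl3 0.48, with Nfkb2 0.45, with Birc3 0.33 and with Nfkb1 -0.07. In deviations from the code means, r was 0.92 for Nfkbid, 0.69 to 0.73 for Tnfaip3, Nfkbiz, Nfkbia, Relb, Nfkb2 and Bcl3, 0.24 for Rel, 0.03 for Birc3 and -0.19 for Nfkb1. Without CT 4, r over the remaining 25 libraries was 0.50 for Relb, 0.29 for Bcl3 and 0.23 for Nfkb2. Without the 2 libraries farthest from the median it was 0.89 for Nfkbid, 0.83 for Tnfaip3 and 0.46 for Rel. Their part in the differences of the members was not tested.

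**Figure D5:**
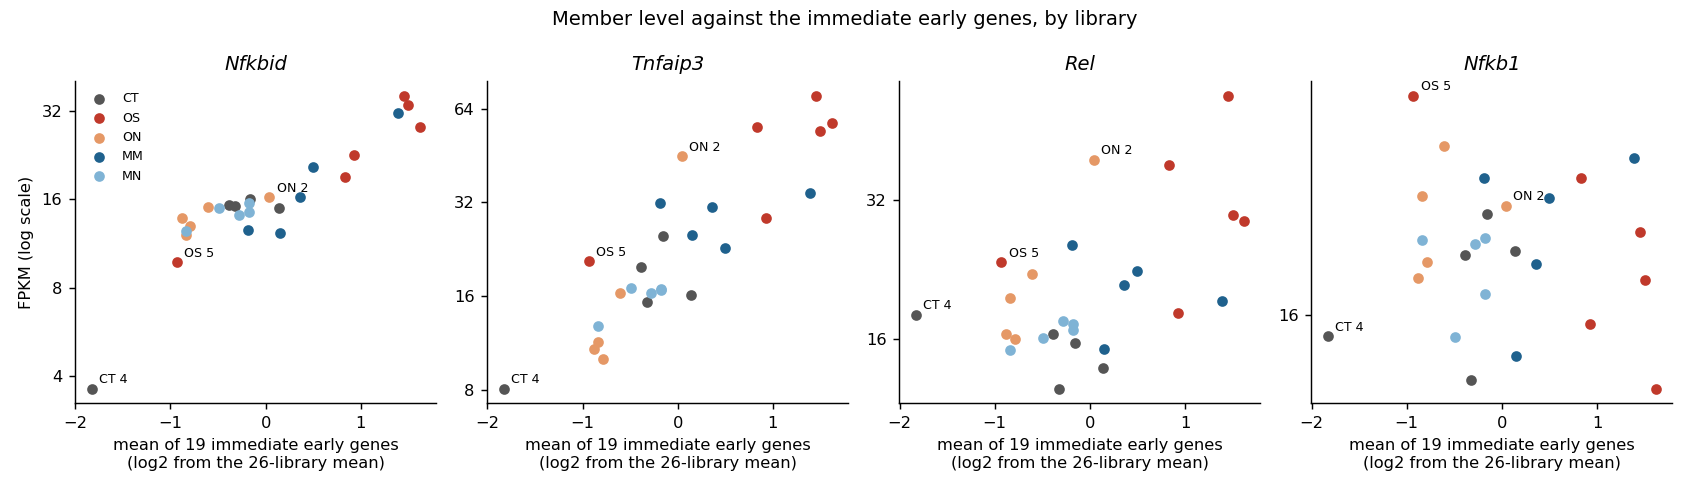
FPKM of Nfkbid, Tnfaip3, Rel and Nfkb1 (log y axis, 1 panel each) against the mean of 19 immediate early genes (x axis, log2 from its 26-library mean), 1 point per library coloured by code. Nfkbid (r = 0.91) and Tnfaip3 (r = 0.87) increase along the axis, Rel (r = 0.53) less closely, and Nfkb1 (r = -0.07) does not.

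Markers of spleen cell types were examined in the same way. In OS against saline none of 10 B cell, 11 T cell, 11 monocyte and macrophage or 10 neutrophil markers was called, beside 2.99% of all genes. Neutrophil markers had a median difference of 0.67 with 10 of 10 above 0, and monocyte and macrophage markers one of -0.25 with 2 of 11 above 0. The summed level of the 10 B cell markers had a median of 1079 FPKM in OS (842 to 1619) and of 1209 in saline (831 to 1388). Of 8 dendritic cell markers 1 was called, Ccr7, the receptor that guides lymphocytes and dendritic cells to lymphoid tissue, with 125 ± 55.1 FPKM in OS and 43.5 ± 8.28 in saline (1.38 ± 0.33, adjusted p = 0.0222). It lifted the summed level of that list to a median of 170 FPKM in OS (92.05 to 249) over 97.4 in saline (75.5 to 102), while Itgax, Flt3 and the other 5 were not called and lay below 0, so that the median of the 8 was -0.08. Of 6 plasma cell markers Prdm1 rose (0.90 ± 0.13), with 4 of 6 above 0 and a median of 0.13. Mzb1, of the same list, had 7.36 ± 2.33 FPKM in OS and 13.1 ± 7.03 in saline and was not called. Of 7 NK cell markers Gzma (-0.69 ± 0.13) and Ncr1 (-0.84 ± 0.22) fell, with 1 of 7 above 0 and a median of -0.07. The neutrophil sum had a median of 4877 FPKM in OS (2187 to 7333) and 2714 in saline (1502 to 8197). The part of these cell types in the member differences was not tested.

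In OS against saline, where 2.99% of all tested genes were called, 0 of 9 ligand genes, 0 of 12 receptor genes, 0 of 20 adaptor and kinase genes and 0 of 10 tested genes of other subunits and inhibitors were called, with medians of 0.04, 0.18, 0.13 and 0.09. Rela, which encodes the p65 subunit, had 36.6 ± 12.1 FPKM in OS and 27.0 ± 6.68 in saline (0.39 ± 0.20, adjusted p = 0.338). Otulin, a deubiquitinating enzyme for linear chains, had 40.9 ± 11.1 and 37.0 ± 6.84 FPKM. Among receptors, Cd14, the co-receptor for bacterial lipopolysaccharide, had 151 ± 84.1 FPKM in OS and 46.4 ± 23.9 in saline (1.60 ± 0.57, adjusted p = 0.139). In MN against OS, 1 of 12 receptor genes fell, beside 1.60% of all tested genes. It was Tlr2 (-0.61 ± 0.16, adjusted p = 0.0424), which encodes a sensor of bacterial lipoproteins. The median of the 12 was -0.02, with 5 above 0.

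Of 27 tested textbook targets of NF-kappaB, 4 rose in OS against saline, beside 1.98% of all tested genes, and the median of all 27 was 0.13, beside 0.00 for all genes. Cd83, an activation marker of B cells and dendritic cells, had 168 ± 85.1 FPKM in OS and 54.7 ± 18.0 in saline (1.49 ± 0.38, adjusted p = 0.0314). Ptgs2, the inducible cyclooxygenase, had 4.47 ± 1.91 and 0.816 ± 0.667 FPKM (1.55 ± 0.40). The chemokine genes Ccl3 (1.57 ± 0.42) and Ccl4 (1.77 ± 0.48) were the other two. Vcam1, an adhesion molecule of stroma and macrophages, had 92.6 ± 16.8 and 96.0 ± 6.52 FPKM (-0.07 ± 0.15) and was not called. In MN against OS, 2 of the 27 fell, Ptgs2 (-1.70 ± 0.40) and Cd83 (-1.49 ± 0.38), beside 1.60% of all tested genes. The median of the 27 there was -0.14, with 9 above 0.

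The tested protein-coding genes whose levels were most like those of the members over the 26 libraries differed between the groups. For Tnfaip3 they were Cd83 (r = 0.97), Il10 (0.97) and Hbegf (0.95), and for Nfkbiz Cxcl2 (0.96), Hilpda (0.95) and Cd83 (0.93). Nfkbid was most like Dll1 (0.94), Dusp2 (0.92) and Ier2 (0.92), and Nfkbia most like Tubb6 (0.87), Rab20 (0.86) and Il10ra (0.85). Rel was closest to Cytip (0.93), Ifnar1 (0.92) and Zbtb10 (0.92), and Birc3 to Skil (0.86), Cd28 (0.85) and Cytip (0.83). Relb went with Il4ra (0.95), Cyth1 (0.94) and Fscn1 (0.94), and Nfkb2 and Bcl3 both had Ilvbl first (0.95 and 0.94). Nfkb1 was closest to Pak2 (0.85), Tbc1d14 (0.84) and Ets1 (0.84). For the mean of all 10 members the closest gene was Nfkbie (0.93), which encodes the inhibitor IkappaB-epsilon, followed by Neurl3 (0.92) and Btg1 (0.91).

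Gene positions are those of the deposited table, whose build is not named. Bcl3 (chromosome 7, 19542387 to 19556695, minus strand), Relb (chromosome 7, 19340142 to 19363363, minus strand) and Nfkbid (chromosome 7, 30121157 to 30128171, plus strand) share a chromosome. Tnfaip3 lies at 18876658 to 18891405 on chromosome 10 and Rel at 23686847 to 23720970 on chromosome 11, both on the minus strand. Bcl3 and Relb had a Pearson r of 0.87 over 26 libraries, and Nfkb2, on chromosome 19, had 0.95 with Bcl3 and 0.85 with Relb. Nfkbid had 0.65 with Bcl3 and 0.75 with Relb. Without CT 4 the last pair of values fell to 0.40 and 0.66.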

How the data were processed

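Poly(A) RNA of mouse spleen was sequenced in 26 libraries. The authors deposited 1 table of FPKM for 56392 genes, with gene length and position. Tools named in the submitters' processing notes, without a stated role, include HISAT2 2.0.5, featureCounts 1.5.0-p3 and StringTie 1.3.3b. The build of the genome is not given here by any source. FPKM multiplied by gene length gave whole multiples of a single step for 100% of values (tolerance 0.05), which recovered the reads. A read on 1 kilobase was worth 0.0520 to 0.0899 FPKM, and this precision covers counting error only. The library depth behind the FPKM was 0.712 (ON 2) to 1.12 (ON 1) times the recovered reads, with CT 4 at 0.802 and MM 2 at 0.885.

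Values were taken as log2(FPKM + 1). A log2 difference on that scale understates the change of low genes. limma 3.58.1 in R 4.3.3 fitted 1 mean per code over all 26 libraries and 15672 genes using a mean-variance trend. Two-sided p-values had Benjamini-Hochberg adjustment over all genes of a comparison, with a threshold of 0.05. Each ± on a log2 difference is a standard error and each ± on FPKM an SD. The OVA level averages the OS and ON means, and the level with mimic averages those of MM and MN. On simulated data the fit recovered 55.2% of 1.5-fold and 94.0% of 2-fold changes in OVA against saline with 10 false calls, and 50.7% and 76.1% in OS against ON with 8. The simulated noise was drawn independently for each gene and library. Libraries that stand apart in many genes, such as CT 4, were not simulated.

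All 10 members are named. Of the other pathway lists, genes past the threshold and up to 2 of the highest FPKM that did not pass could be named, and for each member the 3 genes of highest r. Called marker genes were named after their values were seen. The members and lists were chosen with earlier results of these data known. Alternatives covered the pseudocount (0.1), filters, centring, quantile normalization, voom on the recovered reads, library weights, other designs, a replicate block and leaving out libraries.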

Additional observations from a re-analysis of the deposited data

Results flagged for a closer look

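Within a code, 7 of 50 sets of libraries (10 members in 5 codes) had a library farther from the rest than Dixon's test at 95% allows. Chance flags about 1 in 20 groups, or 2.5 of 50. Of the 7, 4 were CT 4, the saline library with the highest mitochondrial share, which lay below the other saline libraries for Nfkbid (3.63 FPKM), Bcl3 (3.26 FPKM), Nfkb2 (10.7 FPKM) and Relb (9.32 FPKM). ON 2, the library with the most pancreas reads, lay above the other ON libraries for Nfkbiz (32.7 FPKM). In MN, Nfkbia was high in MN 5 (164 FPKM) and Tnfaip3 low in MN 2 (12.8 FPKM). What sets these libraries apart was not tested.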

How the results depend on the processing

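No member's called difference changed direction under any alternative, and the replicate block left all 13 counts of called members as they were (1 in OVA against saline, 2 in OS against saline, 2 in MN against OS, 0 in the other comparisons). Libraries with the same replicate number did not deviate together (r -0.39 to 0.36, median -0.04, over 50 pairs), and 5 of 26 libraries correlated best with their own number, so the numbers were not taken as pairs. In OVA against saline the single call, Rel, was lost, leaving 0, with a pseudocount of 0.1, with no filter on low values, with centring on the library median, with only the libraries compared, with 1 mean per treatment and without the libraries with pancreas reads, and also without those and CT 4, an alternative chosen after seeing the data. Library weights gave 2 members, but there 1435 of 15672 tested genes were called, beside 340 in the main fit. Leaving out 1 library gave 0 to 1. For the other comparisons, counts under an alternative are given without the share of all tested genes called there. They do not set the members against other genes. In OS against ON the count of 0 became 1 with the stricter filter, 5 with library weights and 2 without the libraries with pancreas reads, with or without CT 4, and 0 to 2 leaving out 1 library. In OS against saline the count of 2 became 0 with only the libraries compared, 3 with library weights and 2 to 4 leaving out 1 library. MM against MN gave 1 with only the libraries compared, and ON against saline 2 with library weights (Nfkbia -0.71, Nfkbiz -0.82). MN against OS, whose alternatives were added later, gave 1 with no filter, 1 with only the libraries compared, 4 with library weights and 0 to 3 leaving out 1 library. The cause of these shifts was not tested. The codes are undefined, CT 4 and the libraries with pancreas reads stand apart, and 5 or 6 libraries per code limit the precision more than depth does.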

Other observations

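The balance between subunits can be read within each library, since FPKM is per length. The ratio of Rel to Nfkb1 had a median of 0.862 in saline (0.786 to 1.17), 1.85 in OS (1.05 to 2.97), 1.02 in ON (0.921 to 2.07), 1.18 in MM (0.949 to 1.298) and 0.980 in MN (0.843 to 1.04). OS 5 had the lowest OS ratio, inside the saline range, and ON 2 the highest ON ratio. The ratio of Rel to Relb had a median of 0.830 in saline and 1.80 in OS, and its highest saline value, 1.94, was in CT 4. These ratios show unequal levels and do not say which gene of a pair differed.

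Nfkbia exceeded Nfkb1 by a median ratio of 9.87 in saline (3.86 to 11.7), 10.4 in OS (4.52 to 14.8), 5.67 in ON (4.72 to 7.17), 7.59 in MM (5.63 to 10.3) and 6.99 in MN (6.73 to 10.6). Nfkbiz over Bcl3, both atypical inhibitor genes, had a median of 1.08 in saline (0.777 to 1.64) and 2.19 in OS (1.72 to 2.87). In ON the median was 0.671, with ON 2 at 3.98. Neither gene was called in OS against saline. The ratios were not tested.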
